A study of Mus musculus with 32 samples.

Results

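Matrix metalloproteinases (MMPs) are zinc-dependent proteases that cut collagens, proteoglycans and other proteins outside the cell, and tissue inhibitors of metalloproteinases (TIMPs) bind and block them. The genes described here are Mmp2, Mmp3, Mmp9, Mmp10, Mmp13, Mmp14, Timp1, Timp2 and Timp3, taken as every probe of the array whose platform gene symbol is one of these names. That gave 15 of 25697 probes for 9 genes. Of these, 14 probes were detected on at least 3 arrays, and all 9 genes were among the 10903 genes tested.

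The cells were immortalized MEFs (mouse embryonic fibroblasts, matrix-producing cells of embryonic connective tissue), and their RNA was measured on Illumina bead arrays. KO cells had lost Spry1, Spry2 and Spry4 (Spry124-/-), and WT cells carried the floxed but intact genes (Spry124fl/fl). Sprouty proteins restrain the ERK pathway downstream of growth factor receptors. Each genotype had 4 arrays without FGF (0 min) and 3 arrays each after 15 min, 60 min, 120 min and 240 min of FGF, 32 in all. All of these cells had been starved of serum in DMEM with BSA and antibiotics. The question named by the design text is what loss of this feedback does to gene expression. The labels do not say which FGF was given, at what dose, how the cells were immortalized, or whether the KO cells are 1 clone or come from the WT line. The later times have no arrays without FGF, so FGF and further time in culture cannot be told apart. The replicates are called biological, but no label ties them to separate cultures. The p-values therefore reflect only how these samples vary, and that variation may be technical.

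MMPs are made as inactive proenzymes. Stromelysins (Mmp3, Mmp10) degrade proteoglycans, laminin and other matrix proteins and can activate other MMPs, Mmp13 is a collagenase that cuts fibrillar collagen, and gelatinases (Mmp2, Mmp9) cut denatured collagen and basement membrane collagen. Mmp14 is anchored in the cell membrane and activates proMmp2 in a complex that uses Timp2. In fibroblasts, growth factors that activate ERK are known inducers of the stromelysin and collagenase genes, whose promoters hold sites for AP-1, the dimers of Fos and Jun proteins.

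The promoter sequences of the members that rose most after FGF are given first. An exact motif match is marked, found in 3 of them and in no other member of the sequence table. Mmp13, Mmp3 and Mmp10 lie in 1 run of MMP genes on mouse chromosome 9. Each has 1 match to TGANTCA, the core AP-1 motif, shown in capitals. The Timp1 stretch, from chromosome X, has no exact match and is shown because Timp1 also rose. Its bases after the start, not shown, hold tgagtaa, a near match that TGANTCA does not count. The stretches are the 250 bases before the annotated start, 5′ to 3′, all on the plus strand, from RefSeq (GRCm38.p6): chr9:7445572-7445821 for Mmp3, chr9:7502092-7502341 for Mmp10, chr9:7272264-7272513 for Mmp13 and chrX:20869916-20870165 for Timp1.
Mmp3: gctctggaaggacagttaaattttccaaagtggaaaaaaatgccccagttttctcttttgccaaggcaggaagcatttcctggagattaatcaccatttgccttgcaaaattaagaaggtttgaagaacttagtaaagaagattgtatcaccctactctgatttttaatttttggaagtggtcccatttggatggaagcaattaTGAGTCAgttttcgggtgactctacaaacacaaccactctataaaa
Mmp10: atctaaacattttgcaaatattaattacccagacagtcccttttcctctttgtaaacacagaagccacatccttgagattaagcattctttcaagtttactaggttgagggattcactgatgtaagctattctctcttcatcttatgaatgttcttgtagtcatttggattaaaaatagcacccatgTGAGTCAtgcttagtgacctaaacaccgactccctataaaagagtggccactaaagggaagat
Mmp13: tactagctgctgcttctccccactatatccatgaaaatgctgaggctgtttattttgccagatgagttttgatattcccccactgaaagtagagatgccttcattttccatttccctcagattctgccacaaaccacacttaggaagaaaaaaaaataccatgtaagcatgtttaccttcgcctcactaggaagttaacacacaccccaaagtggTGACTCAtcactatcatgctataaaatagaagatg
Timp1: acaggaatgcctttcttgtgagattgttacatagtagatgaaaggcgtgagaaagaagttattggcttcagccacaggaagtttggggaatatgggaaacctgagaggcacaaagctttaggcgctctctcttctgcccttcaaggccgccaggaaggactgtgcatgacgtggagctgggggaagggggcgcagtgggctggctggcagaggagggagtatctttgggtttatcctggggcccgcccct

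The match lies 46 to 40 bases before the start in Mmp3 (bases -46 to -40), at -63 to -57 in Mmp10 and at -35 to -29 in Mmp13. TGANTCA reads the same on both strands apart from its middle base. RefSeq promoter stretches (250 bases before to 50 after a start) were matched for 7 of the 9 members, all but Mmp2 and Mmp9. Of all 32851 promoters, 7.81% held TGANTCA on either strand, against 3 of these 7. AGGAAG, a form of the Ets motif, was in 5 of the 7 and in 35.4% of all promoters. TATAAA, the TATA box, was in Mmp3, Mmp10 and Mmp13 but not in Mmp14, Timp1, Timp2 or Timp3, and in 13.6% of all promoters. It lay at -7 to -2 in Mmp3, -29 to -24 in Mmp10 and -16 to -11 in Mmp13. All positions count from the annotated start, and whether these cells use that start was not checked. No match of 1 motif overlapped another in these 7. A match describes letters and shows no binding, and the absence of one concerns these letters in this window alone.

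**Figure D1:**
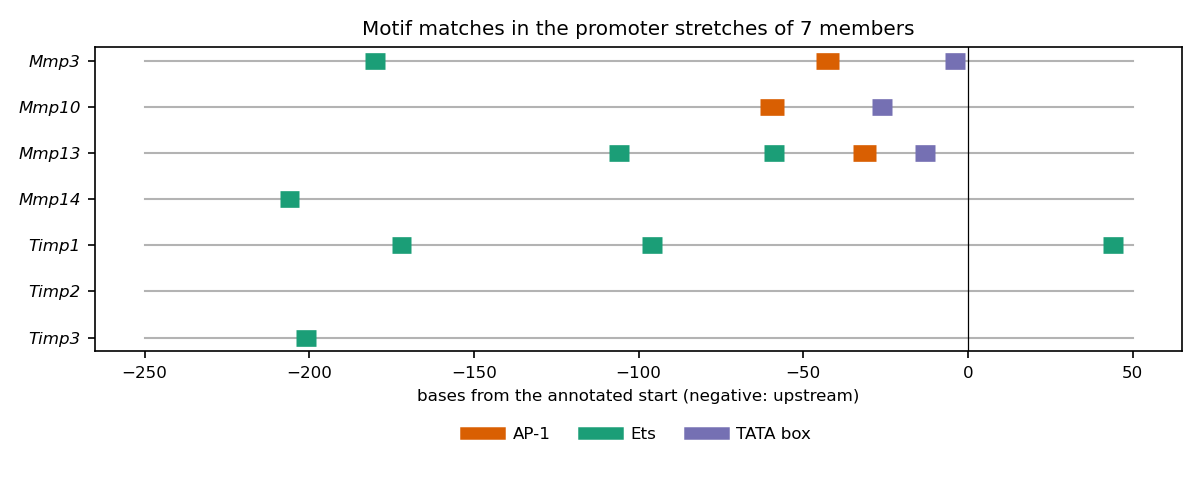
Positions of AP-1 (TGANTCA), Ets (AGGAAG) and TATA box (TATAAA) matches in the promoter stretches of 7 members, in bases from the annotated start (vertical line), negative upstream. The AP-1 match lies between positions -63 and -29 in Mmp3, Mmp10 and Mmp13, with none in the other 4 stretches.

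Between 11319 and 12470 probes (44% to 48.5%) were detected on an array, with a median bead number of 35 to 41, and arrays of a group correlated at 0.99 to 0.9952 across probes. Precision is limited by the 3 or 4 arrays in a group. Of the targeted genes, Spry1 (2 probes) and Spry2 were detected on at most 1 array of any group, so their loss could not be read here, and Spry4 was detected on 4 of 16 KO arrays and 13 of 16 WT arrays. The KO detections included all 3 arrays at 120 min, where Spry4 stood at a mean of 5.19 in KO and 6.13 in WT (-0.94 ± 0.15, adjusted p = 1.06e-05), and at 15 min neither genotype detected it. Spry3, which was not targeted, was detected on 0 KO arrays and all 16 WT arrays. The position of these probes relative to the deleted parts was not checked. Fibroblast markers were present: of 9 listed, 8 were tested and 7 of these were detected on all 32 arrays, among them Col1a1, Pdgfra, Thy1 and Vim. The list differed between the genotypes: at 0 min 4 were higher in KO (Pdgfrb by 1.85, S100a4 by 1.67, Thy1 by 0.70 and Vim by 0.34) and 2 lower (Col3a1 at -0.74 and Col1a2 at -0.46). Its summed intensity was 12480 to 15760 on KO arrays and 8785 to 11380 on WT arrays, and its part in the results below was not tested. Arrays measured whole cultures, so more expressing cells and more RNA per cell cannot be told apart.

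Values below are normalised log2 intensities of 1 probe a gene, the one with the highest mean, and differences are log2 differences with their standard error (SE). A gene is called at a limma Benjamini-Hochberg adjusted p under 0.05 over all 10903 genes. An offset of 16 in the scale makes folds of dim probes too small. Levels of different probes are not comparable.

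The Mmp and Timp genes were mostly higher in KO cells, before FGF and after it. At 0 min 7 of the 9 were called higher and 0 lower, where 45.8% of all genes were called (22.2% higher and 23.7% lower). At 15 min it was again 7 higher and 0 lower, with 39.9% of all genes called (19.1% higher, 20.9% lower). At 60 min 8 were higher and 0 lower (42% of all genes, 20.9% higher and 21% lower). At 120 min 7 were higher and 1 lower (43.8%, with 21.2% higher and 22.6% lower), and at 240 min 9 were higher and 0 lower (43.9%, with 21.9% higher and 22% lower). The median difference over the 9 was 0.74 at 0 min, 0.75 at 15 min, 0.70 at 60 min, 1.41 at 120 min and 1.89 at 240 min, while that over all genes was -0.02 at each time. KO and WT arrays did not overlap for 7 members at 0, 15 and 120 min and for 9 at 60 and 240 min. The share of all genes without overlap was not counted, so these counts have no background to be read against.

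**Figure D2:**
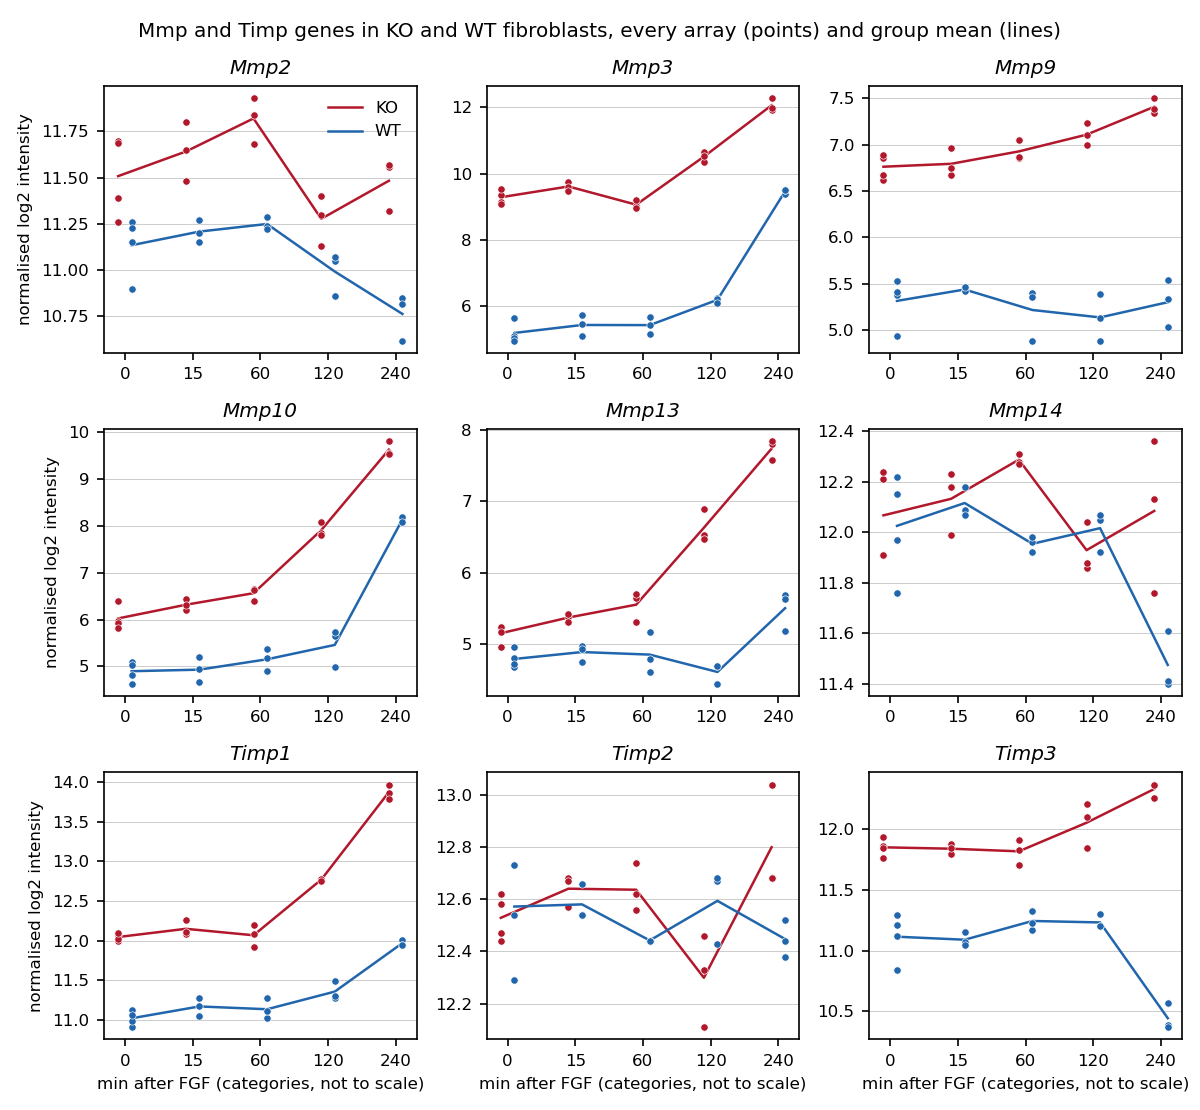
Normalised log2 intensity of the 9 genes on every array (points) with group means (lines) by minutes after FGF (categories, not to scale), KO in red and WT in blue, each panel with its own axis. KO points of Mmp3, Mmp9, Mmp10, Timp1 and Timp3 lie above all WT points of the same time at all 5 times.

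Mmp3, stromelysin-1, had the largest difference between the genotypes among these genes at all 5 times. In starved cells its level was 9.37, 9.15, 9.09 and 9.55 on the KO arrays, against 5.12, 5.06, 5.64 and 4.97 on the WT arrays. The KO arrays were thus far above the WT arrays with no overlap, 17.05-fold in the means (log2 4.09 ± 0.14 SE, adjusted p = 8.2e-20). The WT probe was near the detection limit there, being detected on 3 of 4 arrays at 0 min.

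After FGF, Mmp3 rose in both genotypes, late and steeply. KO arrays were at 9.76, 9.61 and 9.48 at 15 min and 9.02, 9.20 and 8.98 at 60 min, against 5.73, 5.47 and 5.12 and then 5.45, 5.68 and 5.17 on WT arrays. None of these differed from 0 min by the test. At 120 min KO arrays were at 10.35, 10.65 and 10.54 and WT arrays at 6.26, 6.23 and 6.09, both above all their own 0 min arrays. The change was 1.22 ± 0.15 in KO (adjusted p = 7.76e-07) and 0.999 ± 0.149 in WT (4.2e-05). Probe 3 gave no called rise in WT then (0.31 ± 0.15, 0.31), so that the WT rise at 120 min rests on 2 of 3 probes. At 240 min KO arrays were at 11.92, 12.28 and 11.98, against 9.39, 9.51 and 9.51 on WT arrays. By then Mmp3 was 6.84-fold above its 0 min level in KO cells (2.77 ± 0.15, adjusted p = 3.28e-14) and 19.3-fold in WT cells (4.27 ± 0.15, 6.98e-18).

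WT cells at 240 min had reached about the level at which KO cells started. The WT arrays at 240 min spanned 9.39 to 9.51 and the KO arrays at 0 min 9.09 to 9.55, so that these ranges overlapped. The KO to WT difference of Mmp3 was accordingly smaller at 240 min, 6.03-fold (2.59 ± 0.16, adjusted p = 1.12e-13), than the 19.94-fold at 120 min (4.32 ± 0.16, 9.71e-19). The log2 response to 240 min of FGF was smaller in KO than in WT (difference of responses -1.501 ± 0.210, adjusted p = 2.12e-05). On the linear scale the order was the other way: the mean deposited intensity, not normalized between arrays, was up by 3351 in KO cells and by 682.8 in WT cells.

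The 3 Mmp3 probes gave the same direction between KO and WT at every time but not for this difference of responses. Probe 2 gave -1.01 ± 0.21 at 240 min (adjusted p = 0.00308) and probe 3 gave 0.13 ± 0.21 (0.776). KO cells were at least 12.2-, 16.5- and 13.1-fold higher by probe 2 at 0, 15 and 60 min, times at which WT cells did not bring it well above background. Probe 3 gave a smaller KO to WT difference than probe 1 at 0 min, 7.6-fold (2.93 ± 0.14). It gave 20.2-fold at 120 min (4.34 ± 0.16) and 8.3-fold at 240 min (3.06 ± 0.16), so that by probe 3 the difference at 240 min was not below that at 0 min. At 120 min probes 2 and 3 gave a larger response in KO, by 0.99 ± 0.21 (adjusted p = 0.0104) and 1.41 ± 0.21 (0.00016), and probe 1 gave 0.23 ± 0.21 (0.644). Whether the log2 rise of Mmp3 at 240 min was called smaller in KO therefore depended on the probe, and no probe gave a called larger rise in KO then. The WT baselines against which the rise is measured lay at or near background.

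**Figure D3:**
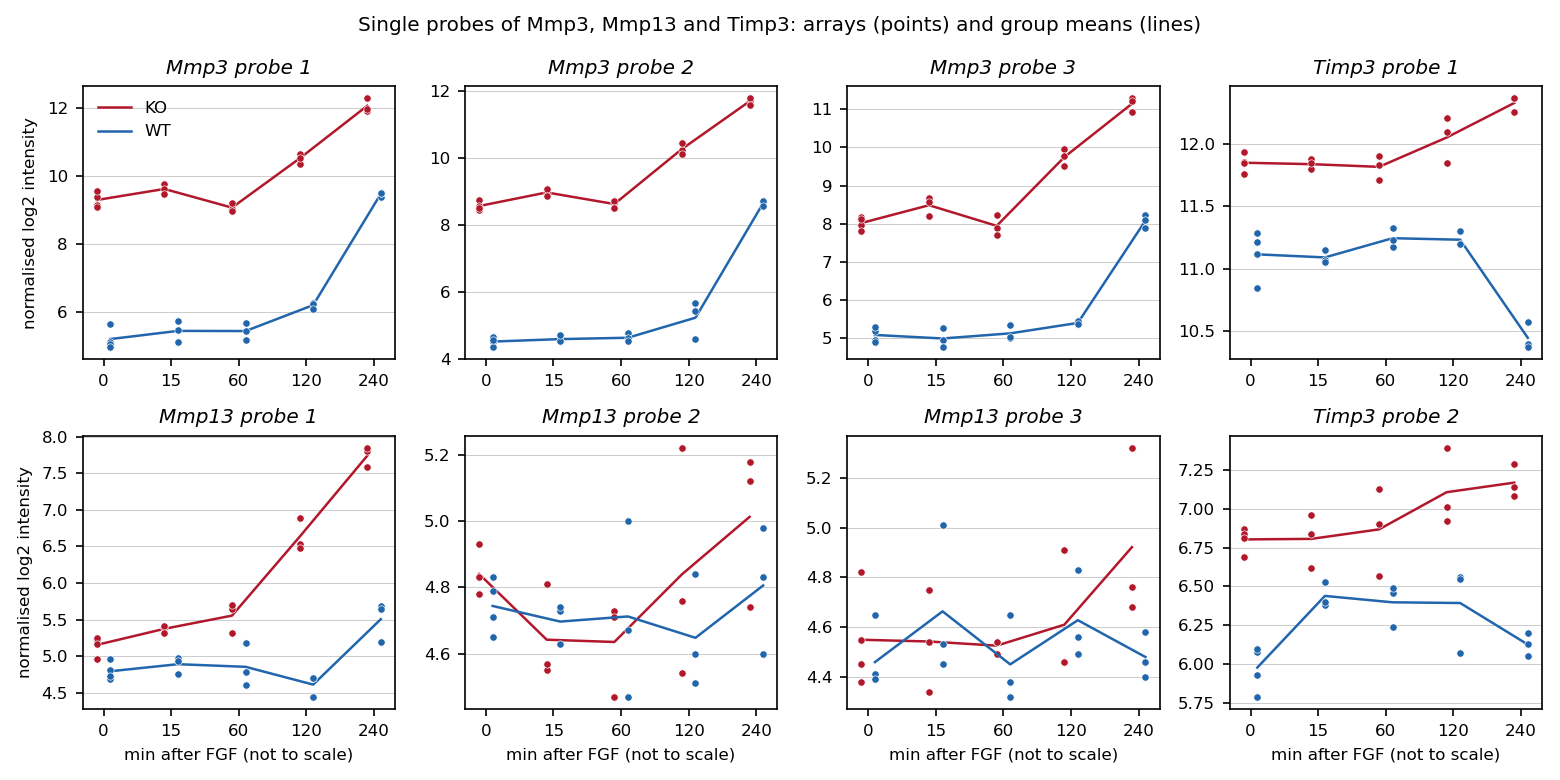
Normalised log2 intensity of single probes of Mmp3, Timp3 and Mmp13 by minutes after FGF (categories, not to scale), with points for arrays and lines for group means, KO in red and WT in blue; each panel has its own axis. The 3 Mmp3 probes rise together at 240 min, Mmp13 probe 1 rises while its probes 2 and 3 stay under 5.4, and only probe 1 of Timp3 falls in WT at 240 min.

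Mmp10, the other stromelysin, is a neighbour of Mmp3 and rose with it. At 0 min it was at 6.40, 5.96, 5.92 and 5.81 on KO arrays, against 4.63, 5.10, 5.04 and 4.82 on WT arrays, of which 2 of 4 detected it. KO cells were above WT cells without overlap (1.13 ± 0.15, adjusted p = 3.2e-07). At 60 min KO arrays were at 6.39, 6.66 and 6.64, a called rise (0.54 ± 0.16, 0.0441) although these overlapped the 0 min arrays. That call was lost in 10 of 15 other settings, among them the replicate block (0.49, adjusted p = 0.11) and leaving out any 1 of 5 arrays (KO at 0 min B, C or D, KO at 60 min B or C).

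KO cells raised Mmp10 ahead of WT cells. At 120 min it was at 7.84, 8.07 and 7.81 on KO arrays, against 5.64, 4.99 and 5.74 on WT arrays. The change from 0 min was 1.88 ± 0.16 in KO (adjusted p = 7.29e-10) and 0.56 ± 0.16 in WT (0.0402), where the arrays overlapped those at 0 min. The WT call was lost in 10 of 15 other settings, its value running between 0.26 and 1.19, among them the replicate block (0.51, adjusted p = 0.103) and leaving out WT at 0 min A or D or WT at 120 min A or C. This response was larger in KO by 1.32 ± 0.22 (adjusted p = 0.000911), and with the authors' deposited series matrix values the same difference had an adjusted p of 0.342.

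By 240 min Mmp10 had risen steeply in WT cells too. KO arrays were at 9.55, 9.80 and 9.52 and WT arrays at 8.16, 8.18 and 8.07, changes of 3.60 ± 0.16 in KO (adjusted p = 5.75e-16) and 3.24 ± 0.16 in WT (1.06e-14). The difference of these responses was 0.36 ± 0.22, with a 95% interval of -0.10 to 0.82 (adjusted p = 0.368). With normexp and an offset of 50 it was 0.79 and called (adjusted p = 1.45e-05). The KO to WT difference of the level was 2.45 ± 0.17 at 120 min (5.46-fold) and 1.49 ± 0.17 at 240 min (2.80-fold). WT arrays at 240 min lay next to KO arrays at 120 min in the order of the 10 groups and overlapped them.

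Mmp13, the collagenase, was dim in starved cells and rose mainly in KO cells. Its first probe was at 5.23, 5.25, 4.97 and 5.17 on KO arrays at 0 min, against 4.69, 4.96, 4.81 and 4.73 on WT arrays, of which 1 of 4 detected it. The difference was small (0.36 ± 0.12, adjusted p = 0.0173), and the lowest KO array lay just above the highest WT array. The call was lost without KO replicate B or WT replicate A at 0 min, and also with normexp and an offset of 50 (0.16), with median scaling over kept probes (0.25) and with the authors' deposited series matrix values (0.945).

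After FGF the genotypes parted. At 120 min Mmp13 was at 6.53, 6.89 and 6.48 on KO arrays and at 4.45, 4.70 and 4.70 on WT arrays, none of which detected it. KO cells were at least 3.27-fold higher (adjusted p = 2.14e-12), the WT probe being not well above background and set, per array, at no less than the lowest signal among detected probes. At 240 min it was at 7.80, 7.84 and 7.58 on KO arrays, against 5.69, 5.19 and 5.64 on WT arrays, all of which detected it.

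The rise to 240 min was 5.99-fold in KO cells (2.58 ± 0.13, adjusted p = 1.23e-14) and 1.64-fold in WT cells (0.71 ± 0.13, 0.000265). Responses differed by 1.87 ± 0.19 at 240 min (adjusted p = 7.2e-08) and by 1.66 ± 0.19 at 120 min (1.76e-06), the second being no bound because WT was not detected there. With the authors' deposited series matrix values, the difference at 240 min had an adjusted p of 0.13. The other two Mmp13 probes were detected on 6 and 2 of the 32 arrays, and the one that passed the filter was not called in any comparison, with a KO rise at 240 min of 0.17 ± 0.14 (adjusted p = 0.429). The Mmp13 result thus rests on 1 of 3 probes. Mmp13 is also made by cartilage and bone cells. Of 8 listed markers of those, Acan, Col10a1, Ibsp and Sp7 were detected on 0 arrays, and the summed intensity of the 4 tested was 118.8 to 337.8 on KO arrays and 184.4 to 362.3 on WT arrays. Of these 4, 0 were called higher and 1 lower in KO at 0 min (22.2% and 23.7% of all genes). At 240 min 2 were higher and 1 lower in KO (21.9% and 22%). The difference of responses at 240 min was called higher for 1 and lower for 1 (4.32% and 3.54% of all genes). Sox9, among the 4, was lower in KO at 0 min (-1.01) and higher at 240 min (0.78). Its changes at 240 min were 1.14 in KO and -0.64 in WT. The part of these markers in the Mmp13 result was not tested.

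Mmp9, the inducible gelatinase, was higher in KO cells throughout and rose after FGF in KO cells. At 0 min it was at 6.62, 6.86, 6.89 and 6.67 on KO arrays, against 5.53, 4.94, 5.38 and 5.41 on WT arrays. At 240 min it was at 7.50, 7.34 and 7.38 on KO arrays, against 5.54, 5.04 and 5.34 on WT arrays. No KO array overlapped a WT array of the same time. The difference was 2.72-fold at 0 min (1.44 ± 0.13, adjusted p = 2.2e-10) and 4.30-fold at 240 min (2.10 ± 0.15, 2.03e-12).

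The Mmp9 rise at 240 min was 0.65 ± 0.14 in KO (adjusted p = 0.00101) and -0.01 ± 0.14 in WT (0.965). Their difference of 0.66 ± 0.19 was called (adjusted p = 0.0338), and that call was lost without any 1 of 8 arrays, which were replicates A and D at 0 min of both genotypes, WT at 240 min B and C and KO at 240 min A and C. It was also lost under the replicate block (adjusted p = 0.0507), when arrays were scaled to the median of all probes (0.062) and with the authors' deposited series matrix values (0.24). Mmp9 is also made by macrophages and neutrophils. Of 10 listed markers of those cells, Ptprc, Itgam and S100a9 were detected on 0 arrays and Adgre1 and Mrc1 on 1, while Cd68 and Csf1r were not matched to a probe. The 3 tested, Lyz2, Cd14 and S100a8, were all called higher in KO at 0 min, by 0.64, 0.54 and 1.59, and at 240 min, by 0.88, 0.80 and 5.39. S100a8 also rose in KO at 240 min, by 3.87. The summed intensity of these 3 was 186.8 to 1399 on KO arrays (median 233.4) and 88.96 to 174.7 on WT arrays (median 146.3), and their part in the Mmp9 result was not tested.

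Mmp2, the constitutive gelatinase, was bright on all 32 arrays and changed little. KO arrays spanned 11.26 to 11.70 at 0 min and WT arrays 10.90 to 11.26, which left no overlap beyond the second decimal (0.37 ± 0.10, adjusted p = 0.00325). The difference was called at all 5 times, between 0.28 ± 0.12 at 120 min (adjusted p = 0.0489) and 0.72 ± 0.12 at 240 min (1.02e-05). The call at 120 min was lost under 3 other processings, under the replicate block, and without any 1 of 5 of the 6 arrays, KO replicate B being the exception. Mmp2 fell by 0.37 on the log2 scale at 240 min in WT cells (SE 0.11, adjusted p = 0.0183), a call lost without WT at 0 min replicate A or B or WT at 240 min replicate B, and with median scaling over all probes. It was at -0.02 ± 0.11 in KO (adjusted p = 0.913). The difference of these responses was 0.35 ± 0.15 and not called (0.181).

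Mmp14, the membrane-type MMP that activates proMmp2, did not differ by the test between starved KO and WT cells. It was at 11.91 to 12.24 on KO arrays and 11.76 to 12.22 on WT arrays at 0 min (0.04 ± 0.11, 95% interval -0.18 to 0.26). At 240 min it was at 12.36, 11.76 and 12.13 on KO arrays, against 11.61, 11.40 and 11.41 on WT arrays, which were below all KO arrays (0.61 ± 0.12, adjusted p = 0.000161). This difference went with a fall in WT cells, where Mmp14 fell by 0.55 on the log2 scale (SE 0.11, adjusted p = 0.000924), against 0.02 ± 0.11 in KO cells. The responses differed by 0.57 ± 0.16 (adjusted p = 0.0285), a call that was lost with median scaling over all probes (0.147) and without any 1 of the same 8 arrays as for Mmp9. The higher KO level at 60 min (0.33 ± 0.12, 0.0294) was lost with both median scalings and without any 1 of the 6 arrays at that time.

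**Figure D4:**
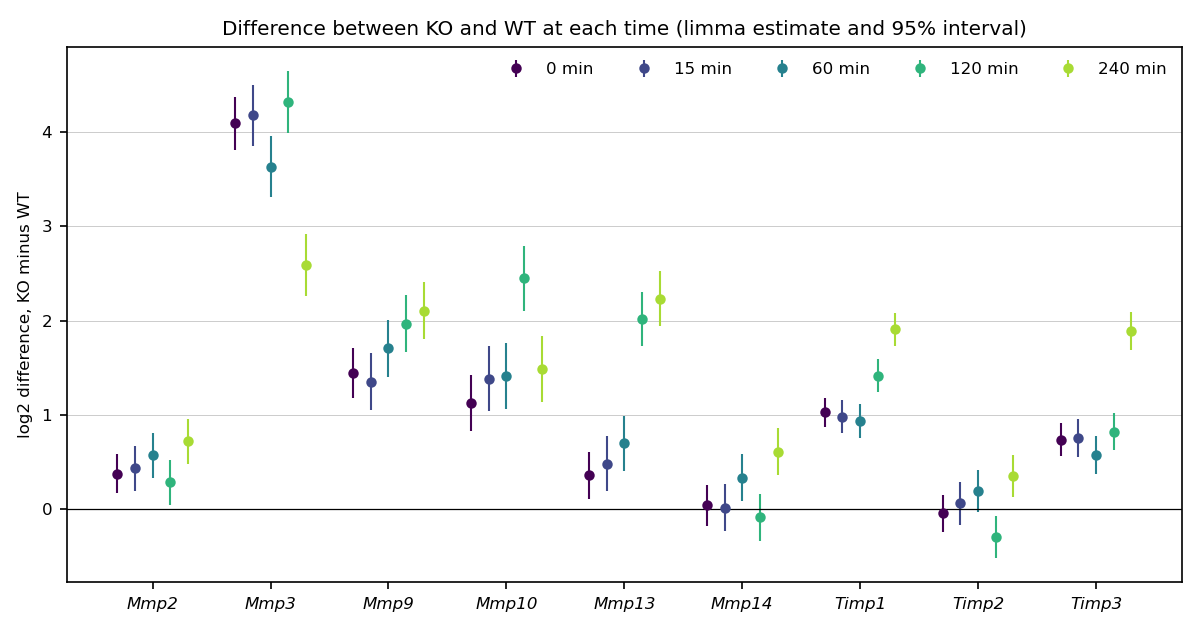
Log2 difference between KO and WT (KO minus WT) of the 9 genes at 0, 15, 60, 120 and 240 min after FGF, with 95% intervals from limma. Mmp3 lies highest at 2.59 to 4.32. Mmp9, Mmp13, Timp1 and Timp3 reach about 2 at 240 min, and Timp2 at 120 min is the only called value below 0.

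Timp1, a TIMP known to be induced by serum and growth factors in fibroblasts, was the inhibitor that moved most. At 0 min it was at 12.07, 12.00, 12.02 and 12.10 on KO arrays, against 11.13, 10.91, 10.98 and 11.06 on WT arrays. KO cells were 2.04-fold higher (1.03 ± 0.07, adjusted p = 3.72e-12). At 120 min it was at 12.77, 12.78 and 12.75 on KO arrays and at 11.28, 11.30 and 11.49 on WT arrays, called rises of 0.72 ± 0.08 in KO (1.54e-07) and 0.34 ± 0.08 in WT (0.0119). The WT call was lost without WT at 120 min replicate C (0.116). The difference of these responses was 0.39 ± 0.11 and not called (limma adjusted p = 0.0754), while the second probe gave a called 0.50 ± 0.10 (0.00558). It was also called with normexp, with median scaling over kept probes and with the mean of all kept probes.

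At 240 min Timp1 was at 13.86, 13.97 and 13.79 on KO arrays, against 12.01, 11.95 and 11.95 on WT arrays. The rise was 3.56-fold in KO (1.83 ± 0.08, adjusted p = 5.75e-16) and 1.93-fold in WT (0.95 ± 0.08, 6.72e-10), larger in KO by 0.88 ± 0.11 (6.29e-06). The second Timp1 probe gave 1.83 ± 0.07 in KO, 0.88 ± 0.07 in WT and a difference of 0.95 ± 0.10 (adjusted p = 1.47e-07). WT arrays at 240 min, at 11.95 to 12.01, overlapped KO arrays at 0 min, at 12.00 to 12.10.

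Timp3, an inhibitor that binds to the matrix, moved apart between the genotypes at 240 min. At 0 min its first probe was at 11.86, 11.85, 11.94 and 11.76 on KO arrays, against 11.21, 11.29, 10.84 and 11.12 on WT arrays (0.74 ± 0.08, adjusted p = 3.42e-08). At 240 min it was at 12.37, 12.26 and 12.37 on KO arrays, all above KO at 0 min, and at 10.39, 10.37 and 10.57 on WT arrays, all below WT at 0 min. It rose in KO (0.48 ± 0.09, adjusted p = 0.000288) and in WT fell by 0.67 on the log2 scale (SE 0.09, 3.46e-06). The responses differed by 1.15 ± 0.13 (5.79e-07), and the KO to WT difference of the level was 3.71-fold at 240 min. The second, dimmer Timp3 probe was also higher in KO at every time but gave no fall in WT (0.15 ± 0.13, adjusted p = 0.521) and a difference of responses of 0.22 ± 0.18 (0.538).

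Timp2, which inhibits Mmp14 and takes part in the activation of proMmp2, was bright on all arrays and changed least. At 0 min it was at 12.44 to 12.62 on KO arrays and 12.29 to 12.73 on WT arrays (-0.04 ± 0.09). At 120 min it was at 12.33, 12.11 and 12.46 on KO arrays, against 12.43, 12.67 and 12.68 on WT arrays, a called difference (-0.30 ± 0.11, adjusted p = 0.0298) whose arrays overlapped. At 240 min it was at 12.68, 12.68 and 13.04 on KO arrays, against 12.52, 12.38 and 12.44 on WT arrays, and was called higher in KO (0.35 ± 0.11, 0.00984). The call at 120 min was lost without KO replicate A or B or WT replicate B or C, and that at 240 min without KO replicate C (0.107) and with median scaling over kept probes (0.20, adjusted p = 0.0564). No FGF response of Timp2 was called in the main setting. In KO the change at 240 min, 0.27, was called with normexp, scaling over kept probes, the filter on all arrays of a group and without KO replicate A or B, and that at 120 min with scaling over all probes (-0.42, 0.00216).

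Across the genes, FGF responses were late. In KO cells 0 of 9 were called by limma at 15 min, where 0.816% of all genes were (0.394% higher, 0.422% lower), and 1 rise at 60 min, where 5.66% were (3.19% higher, 2.47% lower). At 120 min 4 rises were called in KO (15.2% of all genes, 6.14% higher and 9.03% lower), and at 240 min 6 rises (21.3%, with 10.2% higher and 11.1% lower). In WT cells 0 of 9 were called at 15 min (2.29% of all genes, 1.14% higher and 1.16% lower) and at 60 min (5.25%, with 3.15% higher and 2.1% lower). At 120 min 3 rises were called in WT (4.02%, with 2.04% higher and 1.98% lower), and at 240 min 4 rises and 3 falls (16%, with 7.66% higher and 8.33% lower). At an unadjusted limma p under 0.05, 1 member (Mmp3) would be counted at 15 min in KO and 3 (Mmp2, Mmp10 and Mmp13) at 60 min. In WT it would be 0 at 15 and 60 min. The share of all genes at that unadjusted p was not counted, so these counts have no background. Mmp3, Mmp10, Mmp13 and Timp1 rose at 240 min in both genotypes, Mmp9 and Timp3 were called higher in KO at 240 min, and Mmp2, Mmp14 and Timp3 fell in WT. The median size of the change at 240 min was 0.65 in KO and 0.67 in WT, against 0.16 and 0.14 over all genes.

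The difference between the KO and WT responses was called by limma for 0 of 9 genes at 15 min, where 0.055% of all genes were called (0.0459% higher, 0.00917% lower). It was called for 0 at 60 min (0.706%, with 0.358% higher and 0.349% lower), 2 at 120 min (1.86%, with 1% higher and 0.862% lower) and 6 at 240 min (7.86%, with 4.32% higher and 3.54% lower). At an unadjusted p under 0.05 there would be 0 at 15 min and 1 at 60 min, again with no share of all genes counted. The called genes at 120 min were Mmp10 and Mmp13, larger in KO. At 240 min Mmp9, Mmp13, Mmp14, Timp1 and Timp3 had the higher response in KO and Mmp3, by 2 of its 3 probes, the lower. Of the 4 members with over 1 kept probe, both Timp1 probes gave a called difference at 240 min, and Mmp3, Mmp13 and Timp3 each had a kept probe that did not. All responses of a genotype share its 0 min arrays.

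**Figure D5:**
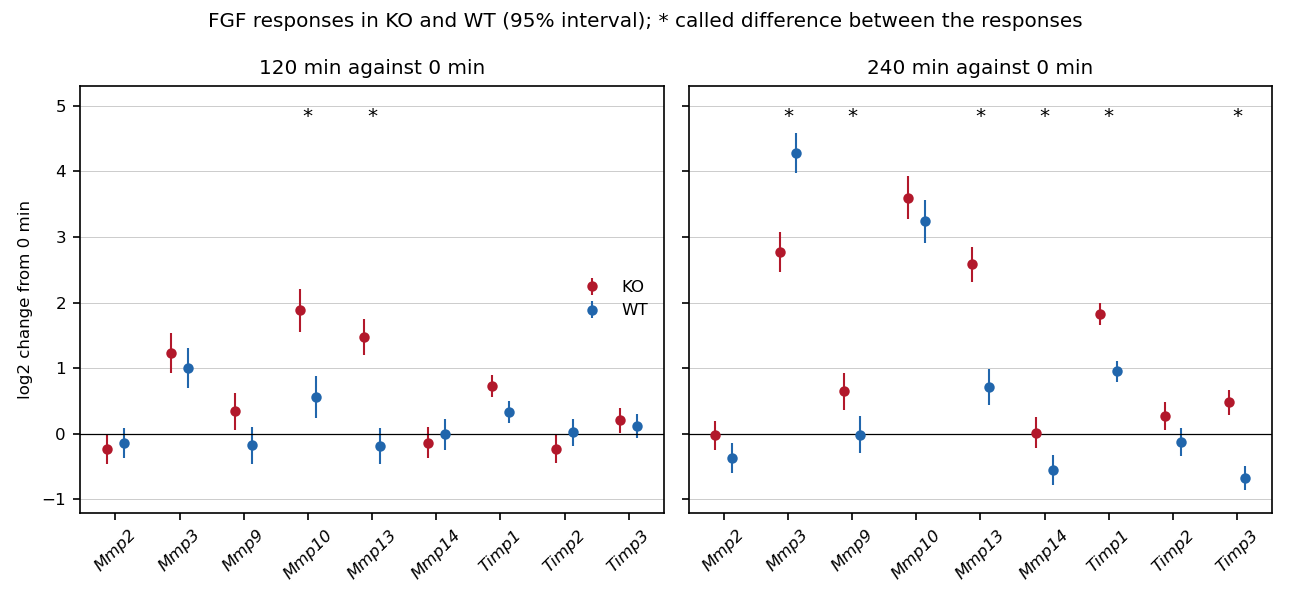
Log2 change from 0 min at 120 and 240 min after FGF in KO (red) and WT (blue) with 95% intervals from limma; a star marks a called difference between the 2 responses. At 240 min Mmp3 changed by 2.77 in KO and 4.27 in WT, and Timp3 by 0.48 in KO and -0.67 in WT.

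Over the 10 group means, the profiles of Mmp3, Mmp10, Mmp13 and Timp1 ran close together, with Pearson r between 0.85 (Mmp3 and Mmp13) and 0.96 (Mmp13 and Timp1). Mmp9 and Timp3 were alike at 0.90 and Mmp2 and Mmp14 at 0.82, while Mmp14 against Mmp10 gave -0.30. These values describe 10 points that share their arrays and carry a genotype difference. Of 10040 other named genes, the 3 most like each member by r over the group means were also found. For Mmp3 they were Plpp3, Glrx and Mertk (0.98 each). For Mmp10 they were Mgp (0.98), the matrix protein gene Tnc (0.98) and Odc1 (0.97), and for Mmp13 Ivl (0.98), Akr1c18 (0.97) and Chrna1 (0.97). For Timp1 they were Upp1 (0.99), Srxn1 (0.98) and Slc29a1 (0.98), for Mmp9 Hoxb5, Tmem30a and Bcl2l2 (0.99 each), and for Timp3 Acbd3 (0.98), Cdc42se1 (0.97) and Hk1 (0.96). Mmp2 was closest to Arsb, Prrc2b and Hdlbp (0.97 to 0.98), Mmp14 to Fblim1, Med15 and Maco1 (0.94 to 0.95) and Timp2 to Ep300, Reep3 and Ccdc120 (0.87 to 0.90).

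The run on chromosome 9 holds 10 MMP genes in the RefSeq table, in the order Mmp13, Mmp12, Mmp1b, Mmp3, Mmp1a, Mmp10, Mmp8, Mmp27, Mmp20 and Mmp7. Probes exist for 9 of them and 4 were tested. Mmp1a, between Mmp3 and Mmp10, did not follow them: it was at -0.08 between KO and WT at 0 min (adjusted p = 0.68), with changes at 240 min of 0.42 in KO and 0.41 in WT (0.0512 and 0.0699). At 120 min Mmp1a rose in KO by 0.51 ± 0.16 (adjusted p = 0.0245). The 5 others with probes were detected on 0 or 1 arrays. At least 1 promoter of 8 of the 10 held TGANTCA, including Mmp1a and 4 of the 5 that had probes but were not tested.

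Among 17 tested genes for transcription factors known to bind Mmp promoters, 8 rose at 60 min in KO and 8 in WT (3.19% and 3.15% of all genes), and 0 fell (2.47% and 2.1%). Fos rose by 3.32 ± 0.25 in KO and 2.10 ± 0.25 in WT (adjusted p = 1.13e-10 and 8.11e-07), and Junb by 2.38 ± 0.10 and 2.15 ± 0.10. Fosb, not well above background at 0 min, rose at least 5.05-fold in KO and at least 4.67-fold in WT. At 0 min 8 of the 17 were higher in KO and 2 lower (22.2% and 23.7% of all genes). Fosl1, another AP-1 subunit, was higher in KO at 0 min by 1.04 (adjusted p = 1.31e-07) and at 15 min by 1.16 ± 0.15. The difference of responses was called for Egr1 at 60 min (0.96, adjusted p = 0.0285), for Egr1 (1.04) and Junb (0.97 ± 0.14) at 120 min, and for 4 at 240 min, all larger in KO. These were Egr1 (1.85 ± 0.22), Junb, Cebpb (0.63 ± 0.12) and Ets2 (0.50 ± 0.14). The mean of Egr1 was lower in KO at 0 min, 10.66 against 11.36 in WT, and 14.08 against 13.83 at 60 min. Its larger KO response thus includes a lower KO start. Of all genes, the difference of responses was called for 0.706% at 60 min, 1.86% at 120 min and 7.86% at 240 min (0.358%, 1% and 4.32% higher). Over these 17 the median difference between KO and WT at 0 min was 0.31, against -0.02 over all genes.

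Among 12 tested genes of MMP activation and clearance, 5 rose in KO at 240 min and 0 fell (10.2% and 11.1% of all genes), and in WT 3 rose and 2 fell (7.66% and 8.33%). The medians were 0.25 in KO and -0.005 in WT. Plau, the urokinase that generates plasmin, an activator of proMMPs, rose at 240 min by 1.22 in KO and 2.54 ± 0.12 in WT. Its response was smaller in KO (-1.32 ± 0.17, adjusted p = 6.45e-06), the only 1 of the 12 called that way at 240 min (3.54% of all genes). Responses called larger in KO at 240 min were those of 4 genes (4.32% of all genes). They were Serpinb2, Furin (0.74 ± 0.15, adjusted p = 0.00247), Plaur (0.70 ± 0.11, 0.000112) and Cd44 (0.59, 0.0332). Plaur, the urokinase receptor, rose by 1.49 ± 0.08 in KO and 0.79 ± 0.08 in WT, and the hyaluronan receptor Cd44 by 1.28 ± 0.12 and 0.69 ± 0.12. Serpinb2, an inhibitor of plasminogen activators, was at least 6.38-fold higher in KO than in WT at 240 min (adjusted p = 1.31e-19) and at least 6.85-fold above its own 0 min level. It was not well above background on WT arrays at 240 min. Thbs2, a matrix protein known to take part in clearing Mmp2, was higher in KO by 3.31 at 0 min and 3.52 ± 0.14 at 240 min. At 0 min 6 of the 12 were higher in KO and 2 lower (22.2% and 23.7% of all genes).

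Of 15 tested genes for matrix substrates, 5 were higher and 5 lower in KO at 0 min (22.2% and 23.7% of all genes), with a median of -0.06. Dcn, a small proteoglycan that MMPs cut, stood at -3.36 ± 0.07 in KO relative to WT, a 10.3-fold difference (adjusted p = 2.07e-24), and Col3a1 was lower by 0.74 on the log2 scale (value -0.74, 0.00197). Tnc, an adhesion-modulating matrix protein, was higher in KO at 15 min by 1.40 ± 0.15 and rose at 240 min by 2.48 ± 0.14 in KO and 2.38 ± 0.14 in WT. Nid1 and Lamc1, of the basement membrane, were higher in KO at 240 min by 1.72 ± 0.17 and 1.43 ± 0.19. The difference of responses at 240 min was called for 1 of 15, Col4a1 (0.68 ± 0.21, adjusted p = 0.0457), where 7.86% of all genes were (4.32% higher, 3.54% lower).

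Of 22 other metalloproteinases and inhibitors tested, 6 were higher and 3 lower in KO at 0 min (22.2% and 23.7% of all genes), and 9 higher and 2 lower at 240 min (21.9% and 22%), with medians of 0.09 and 0.28. Adam17, the sheddase of ErbB ligands, was higher in KO at 0 min by 0.99 ± 0.10, and Adam15 at 60 min by 1.503 ± 0.123. At 240 min of FGF 2 rose and 4 fell in KO (10.2% and 11.1% of all genes), and 0 rose and 4 fell in WT (7.66% and 8.33%), with medians of -0.03 and -0.10. Adamts1, an aggrecanase, rose at 60 min by 1.03 in KO and by 0.63 in WT. At 240 min it had fallen from its 0 min level by 1.66 on the log2 scale in KO and by 1.35 in WT. Adamts4, also an aggrecanase, rose at 60 min by 0.94 ± 0.14 in KO and by 0.75 in WT, and at 240 min was at -0.46 in KO and -2.10 ± 0.14 in WT, a difference of responses of 1.64 ± 0.20 (adjusted p = 2.44e-06).

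Of 6 endothelial markers, Cdh5, Vwf and Emcn were detected on 0 arrays and Pecam1 on 1. The summed intensity of the 2 tested was 12.98 to 40.88 on KO arrays and 10.03 to 24.91 on WT arrays. Of 6 epithelial markers 3 were tested, with Cdh1 higher (0.25) and Krt8 lower (-1.73) in KO at 0 min and Krt5 and Krt18 detected on 0 arrays. Their sums were 31.53 to 54.07 on KO arrays and 85.05 to 184.1 on WT arrays, and their part in the Mmp and Timp results was not tested.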

How the data were processed

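Total RNA was labelled with biotin and hybridised to bead arrays, per the labels. The deposited values are linear intensities, not normalized between arrays and, as negative values show, already background-subtracted. GenomeStudio 1.9.0 is named, with no role, per the submitters' processing notes. Detection was deposited as a fraction for each probe, read from its values as 1 minus the detection p-value. The authors' series matrix gives a second deposited intensity per probe (column medians 10.1 to 10.2), correlating with the first at 0.9991 or more on the log scale within an array. Its columns share nearly 1 distribution, how it was made is not stated in the labels, and it was used for 1 alternative. The bead counts were deposited too. A further 160 columns of values per sample were not used.

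Platform annotation gave 1 symbol for 23978 of 25697 probes, several for 0 and none for 1719; 23962 matched the RefSeq table (GRCm38.p6) by gene ID. The array's own build is not named, so coordinates are given for RefSeq promoters alone.

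With limma 3.58.1 in R 4.3.3, deposited intensities were corrected with neqc (negative controls inferred from detection p, offset 16), put on the log2 scale and quantile-normalized. Probes with detection p under 0.05 on at least 3 arrays were kept (14716), and the brightest of a gene represented it (10903 genes, 862 of them unnamed probes). lmFit and eBayes then fitted 10 group means to the 32 arrays, with 22 residual degrees of freedom and a prior of 5.27, and each contrast was adjusted with Benjamini-Hochberg over 10903 genes. Simulated data tested the fit. No 2 arrays held identical values.

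The members and lists were chosen with earlier results of these data known. Named genes are the 9 members, for each the 3 named genes of highest Pearson r over the group means, and from 4 lists up to 4 called genes per comparison with the largest change, a few of which are also given at other times. Mmp1a was also read as the tested neighbour in the chromosome 9 run, and markers come from 5 fixed lists.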

Additional observations from a re-analysis of the deposited data

Results flagged for a closer look

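The difference between the KO and WT responses to FGF was called for 6 genes at 240 min and 2 at 120 min (limma adjusted p, 3 or 4 arrays per group). Of all genes, 7.86% were called at 240 min and 1.86% at 120 min. At 120 min Mmp10 responded more in KO than in WT by 1.32 (adjusted p = 0.000911) and Mmp13 by 1.66 (1.76e-06), with the WT Mmp13 probe not detected at that time. At 240 min Mmp13 responded more in KO by 1.87 (7.2e-08), Timp1 by 0.88 (6.29e-06) and Mmp9 by 0.66 (0.0338). Mmp14 gave 0.57 (0.0285) and Timp3 1.15 (5.79e-07), both with a fall in WT, the Timp3 value resting on 1 of 2 probes. Mmp3 gave -1.50 (2.12e-05), by 2 of 3 probes. In the 18 groups of 4 arrays at 0 min (9 genes, KO and WT), 0 had an array that stood apart by Dixon's test.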

How the results depend on the processing

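Of the 45 combinations of gene and time between KO and WT, 39 were called, 36 to 38 under 6 other processings and 39 with a filter on detection in all arrays of a group. The KO response gave 11 calls (10 to 14 otherwise) and the WT response 10 (8 to 10). The difference of responses gave 8 calls, 5 with the authors' deposited series matrix values, 12 with normexp and an offset of 50, and 7 to 10 otherwise. Over all genes in the main setting, 43.1% of such combinations were called between KO and WT. For the KO response it was 10.7%, for the WT response 6.89% and for the difference 2.62%. Requiring every kept probe of a gene, an alternative chosen after seeing the data, left 33, 9, 7 and 4 in that order. Without 1 array, the ranges were 37 to 39 between KO and WT, 10 to 12 for KO, 8 to 10 for WT and 6 to 9 for the difference. No called result changed sign. The replicate letters did not pair the arrays: deviations of arrays with the same letter correlated at a median of -0.01 (136 pairs, -0.25 to 0.27), and those with different letters at 0 (324 pairs). The replicate block gave 38, 10, 9 and 7 calls. The cause of the losses was not tested.

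Median scaling over all probes moved the median of all genes at 120 min to -0.12 between KO and WT, to -0.21 for the KO response and to -0.27 for the difference of responses, and scaling over kept probes moved it to -0.11 between KO and WT at 0 min. The share of all calls that were higher moved with it: at 0 min between KO and WT 48.4% with quantile normalization, 66.9% and 38% with the 2 scalings, and 40.4%, 5.61% and 61.9% in KO after 120 min of FGF. A slide block was not run, since the headers name no slides. Depth is limited by signal over background: Mmp13, Mmp9, Mmp10 and Mmp3 in starved WT cells lay near the detection limit, and their log2 changes vary most with the correction, as in Mmp3 at 240 min, -2.30 to -0.42 for the difference of responses.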
